A study of Homo sapiens with 8 samples.

Results

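The p53 target genes are 34 genes that the tumor suppressor p53 is known to activate, and they were examined here gene by gene in HCT116 and UF1hypo cells with and without UHRF1 knockdown. They were taken by gene symbol from a list of known p53 targets, and no measured value enters that rule. All 34 were found among the 60649 gene identifiers of the expression tables, of which 19942 are protein-coding. PolyA RNA was sequenced in 8 libraries, 2 in each of 4 groups. HCT116 is a human colorectal cancer cell line. UF1hypo is a single clone of HCT116 in which exon 4 of one UHRF1 allele was removed, so it is a heterozygous UHRF1 knockout, and what is seen in it is seen in 1 clone. Each line carried a scrambled control hairpin, called shScr, or shUHRF1, a hairpin that targets UHRF1, delivered by lentivirus and kept as puromycin-selected stable pools, so all 4 groups share infection, a hairpin and selection. Nothing states that the 2 libraries of a group came from separate cultures, so the tests measure only the spread between these libraries, which may be technical. In bulk RNA, fewer cells that express a gene and less RNA per cell cannot be told apart.

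p53 is a transcription factor that is kept scarce by its own target MDM2, an E3 ubiquitin ligase, and accumulates after DNA damage and other stress. It binds DNA as a tetramer at a response element made of a pair of adjacent decamers, each with an inner core of a C and a G that flank A or T, and the genes so activated stop the cell cycle, repair DNA, adjust metabolism or start apoptosis. UHRF1 reads hemi-methylated DNA at replication forks and brings DNMT1 there, so that DNA methylation is copied. p21, the product of CDKN1A, is the best known p53 target in colorectal cancer cells.

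The letters that p53 reads were looked up around the start sites of the members. Within 2500 bp on each side of the start of the canonical transcript (GRCh38, GENCODE 44), an element was scored as 20 bases, that is 2 decamers with no spacer, with the C and G of each core required and at most 2 mismatches to the consensus elsewhere. The consensus reads the same on both strands, so both were covered. Such a match lay near 16 of the 34 members (47.1%) and near 753 of 19942 protein-coding genes (3.78%). With at most 1 mismatch the shares were 20.6% and 0.516%, and with none 5.88% and 0.0652%. The limit of 2 was set after a first scan with 1 had been seen. A match describes letters and not binding, and the members are known p53 targets, so their share is no result of these libraries. The sequences below belong to some of the members with a match, and capitals mark the 4-base core of each decamer.
CDKN1A, upstream, chr6:36676449-36676468, plus strand, 2 mismatches: gaaCATGtcccaaCATGttg
BTG2, upstream, chr1:203303642-203303661, plus strand, 2 mismatches: acgCATGttcaggCATGcat
PLK2, upstream, chr5:58462274-58462293, minus strand, 0 mismatches: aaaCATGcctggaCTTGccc
MDM2, intron, chr12:68808923-68808942, plus strand, 2 mismatches: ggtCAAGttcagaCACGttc
ZMAT3, intron, chr3:179070188-179070207, minus strand, 0 mismatches: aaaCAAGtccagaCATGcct
DDB2, across the start site, chr11:47214969-47214988, plus strand, 1 mismatch: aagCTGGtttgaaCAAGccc
GADD45A, intron, chr1:67686775-67686794, plus strand, 1 mismatch: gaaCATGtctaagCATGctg
FAS, intron, chr10:88991309-88991328, plus strand, 2 mismatches: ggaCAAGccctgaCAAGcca
No match was found in the window of PHLDA3, KITLG, TP53I3 or BBC3, which says only that these letters are not in that window.

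Expression is given as TPM, the transcript abundance relative to the whole library and per transcript length, which the authors computed with StringTie. Library depth ran from 5.42 to 7.83 gigabases of aligned sequence, and the reads behind a single gene are unknown, because the tables hold no counts. UHRF1 itself (ENSG00000276043.5) went from 87.5 and 98.4 TPM with shScr to 31.7 and 32.7 with shUHRF1 in HCT116, and from 47.3 and 50.6 to 34.1 and 21.1 in UF1hypo. Both knockdown libraries lay below both controls in each line. Of 9 colon epithelial markers, 7 were above 1 TPM in every library, while VIL1 and CDX1 were at or near 0. Of the leukocyte markers PTPRC, CD3E, CD14, MS4A1 and NKG7 stayed under 1 TPM everywhere. The summed leukocyte markers ran from 8.27 to 15.7 TPM in HCT116 and from 42.2 to 110.3 in UF1hypo libraries, most of it CD68. The 2 UF1hypo shUHRF1 libraries differed more than any other replicates (Pearson's r = 0.956 across genes, against 0.991 to 0.992), and their difference followed GC content (Spearman's rho = -0.80 across genes, which are not independent), so members whose values there lie far apart are given by library. The difference between the 2 UF1hypo shScr libraries also followed GC content, with the opposite sign (Spearman's rho = 0.50). In HCT116 shScr and HCT116 shUHRF1 rho was 0.04 and 0.07. The part of these patterns in the results below was not tested beyond the corrected values given there.

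Changes were tested with limma on log2(TPM + 1) over all 8 libraries. A gene was tested when it exceeded 1 TPM in at least 1 library of the comparison, and called when its log2 fold change was beyond 1 in either direction at an adjusted p under 0.05 (Benjamini-Hochberg over all tested genes). An exact permutation test of 1 gene in 2 against 2 libraries cannot reach a p below 0.33. The log2 fold changes below are differences of mean log2(TPM + 1), which understate the change of genes near 1 TPM. The heat map of all members shows the block of higher values in HCT116 shUHRF1 and a mixed pattern in UF1hypo shUHRF1.

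**Figure D1:**
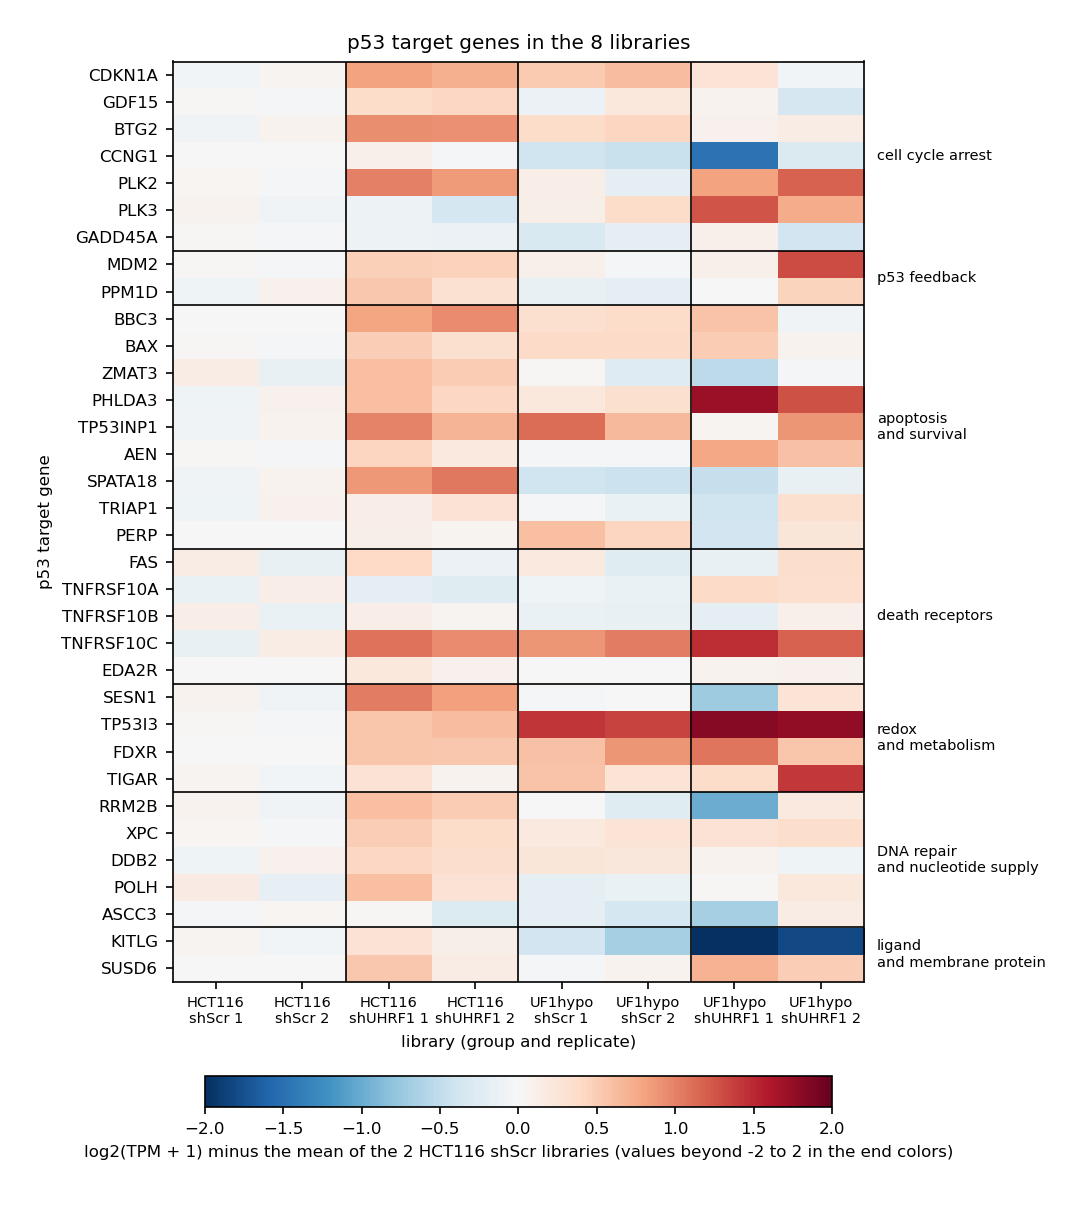
Level of each of the 34 p53 target genes (rows, grouped by role) in each of the 8 libraries (columns), as log2(TPM + 1) minus the mean of the 2 HCT116 shScr libraries, with red above and blue below that mean. In HCT116 shUHRF1, 25 of the 32 members that exceeded 1 TPM in both groups lie above both HCT116 shScr libraries, where 20.1% of all tested genes do. SPATA18 and EDA2R are not counted there. In UF1hypo shUHRF1 KITLG is the bluest row.

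In HCT116 cells, UHRF1 knockdown came with slightly higher levels across the p53 target genes, CDKN1A, BTG2, PLK2, BBC3, SESN1 and TNFRSF10C among them, but none of these differences was past the threshold of the shared fit. Both shUHRF1 libraries lay above both shScr libraries for 27 of the 34 members and below for 3, and they overlapped for 4. Of the 33 members tested, 26 lay above, where 20.1% of all 12704 tested genes did, and 3 lay below, where 29.3% of all did. SPATA18 passed the filter only through the knockdown libraries, and without it 25 of 32 lay above. EDA2R was under 0.2 TPM in every library and was not tested. The median log2 fold change of the tested members was 0.43, against -0.03 for all tested genes. The summed level of the 34 genes was 2671 and 2612 TPM in shScr and 3510 and 3306 TPM in shUHRF1.

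The limma test across all 8 libraries called 0 of 33 members in HCT116, while 0.0472% of all genes were called higher and 0.0236% lower. Before adjustment 15 members had a p below 0.05, each with the higher level in shUHRF1, and 2.57% of all tested genes did so in that direction. The wide spread of the UF1hypo shUHRF1 libraries enters this fit. With the 4 HCT116 libraries alone, 14 of 33 members were higher at an adjusted p below 0.05 and none was lower, where 1.56% of all genes were higher and 2.5% were lower, and TNFRSF10C was the only one past the fold threshold as well. Those 14 were CDKN1A, BTG2, PLK2, GDF15, MDM2, BBC3, BAX, PHLDA3, TP53INP1, TNFRSF10C, SESN1, TP53I3, FDXR and RRM2B.

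Among the genes of cell cycle arrest, CDKN1A (ENSG00000124762.14; GRCh38 chromosome 6, 36676460 to 36687337), which encodes the cyclin-dependent kinase inhibitor p21, was at 285 and 307 TPM in shScr and at 520 and 485 TPM in shUHRF1. The groups did not overlap, and the ratio of the means was 1.70. Its log2 fold change was 0.76 ± 0.15 (SE; limma, adjusted p = 0.143), and with the HCT116 libraries alone the adjusted p was 0.000739. BTG2, an antiproliferative cofactor of mRNA deadenylation (ENSG00000159388.6), went from 22.5 and 25.1 TPM in shScr to 46.4 and 45.5 TPM in shUHRF1, a log2 fold change of 0.92 ± 0.16 (limma, adjusted p = 0.103). PLK2, a polo-like kinase that p53 induces (ENSG00000145632.15), was at 57.3 and 53.7 TPM with shScr and 113 and 101 TPM with shUHRF1, a log2 fold change of 0.93 ± 0.19 (limma, adjusted p = 0.151). For both genes the libraries of the groups lay well apart. The stress cytokine GDF15 lay higher by 0.39, whereas the levels of GADD45A (224 and 216 TPM, then 205 and 202) and of the kinase PLK3 (59.5 and 54.2, then 52.8 and 44.4) lay below their controls, with adjusted p = 1 for both in limma. CCNG1, which encodes cyclin G1, overlapped between the groups at 88.1 and 86.9 against 93.9 and 84.7 TPM.

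**Figure D2:**
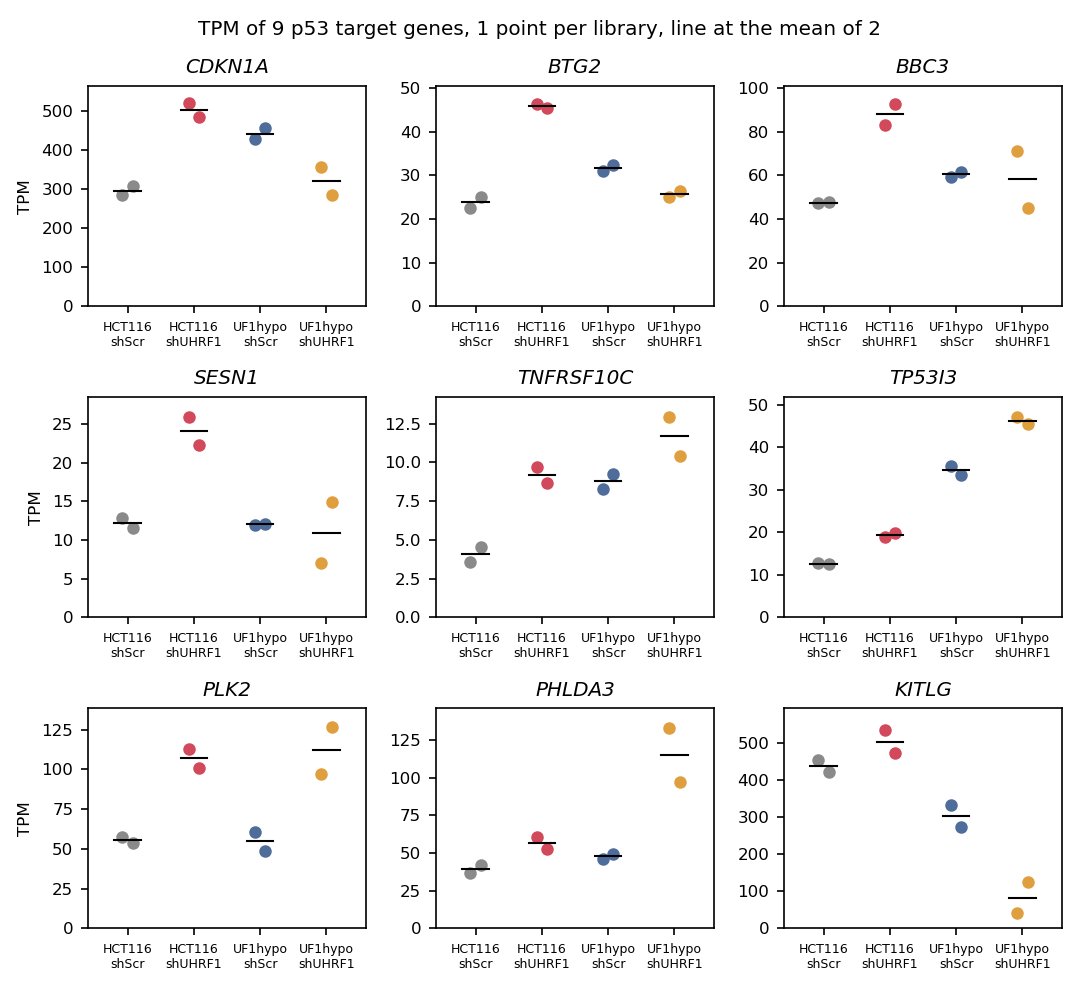
TPM (vertical axes, each from 0) of 9 p53 target genes in the 4 groups, with 1 point per library and a line at the mean of 2. CDKN1A, BTG2, BBC3 and SESN1 are highest in HCT116 shUHRF1, TP53I3 is higher in all 4 UF1hypo libraries than in any HCT116 library, and KITLG is lowest in UF1hypo shUHRF1.

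All 9 genes of apoptosis and survival had both shUHRF1 libraries above both shScr libraries in HCT116, where 20.1% of all tested genes did. The log2 fold changes ran from 0.08 for PERP to 0.87 for BBC3. SPATA18, which passed the filter only through the knockdown libraries, had 0.96. BBC3, the BH3-only protein PUMA that frees BAX, was at 47.2 and 47.9 TPM in shScr and 83.0 and 92.8 TPM in shUHRF1 (log2 fold change 0.87 ± 0.21; limma, adjusted p = 0.288). BAX, which permeabilizes the outer mitochondrial membrane, was at 157 and 152 TPM and then at 218 and 192 TPM. SPATA18, linked to mitochondrial quality control, stayed low at 0.31 and 0.43 TPM with shScr and 1.5 and 1.84 TPM with shUHRF1. TP53INP1, a nuclear protein of stress and autophagy, was at 6.41 and 7.15 TPM and then at 14.4 and 11.5 TPM, and the RNA-binding protein ZMAT3 at 11.6 and 9.12 and then at 16.1 and 15.0 TPM. These groups stood apart without passing the test of the shared fit.

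Death receptors did not move as a group in HCT116. The decoy receptor TNFRSF10C, which binds TRAIL without a death domain, was at 3.55 and 4.56 TPM in shScr and 9.70 and 8.69 TPM in shUHRF1, with the largest log2 fold change of the tested members, 1.02 ± 0.21 (limma, adjusted p = 0.172, and 0.0151 with the HCT116 libraries alone). Its value is uncertain, since 33.0% of its annotated exon bases are shared with other genes on the same strand and the counting rule for such reads is not given in the sources used here. The TRAIL receptor TNFRSF10B, at 158 and 132 against 158 and 150 TPM, and FAS, at 13.9 and 11.2 against 16.7 and 11.4 TPM, overlapped between the groups. TNFRSF10A lay slightly lower, at 34.9 and 41.8 against 33.6 and 32.0 TPM, and 16.7% of its exon bases are shared with antisense genes, from which it cannot be told apart without strand.

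All 4 genes of redox and metabolism had higher libraries on knockdown in HCT116, where 20.1% of all tested genes did. SESN1, a sestrin that restrains mTORC1, was at 12.8 and 11.6 TPM with shScr and 25.9 and 22.3 TPM with shUHRF1 (log2 fold change 0.92 ± 0.30; limma, adjusted p = 0.476). TP53I3, a quinone oxidoreductase also called PIG3, was at 12.8 and 12.4 and then 19.0 and 19.8 TPM, and FDXR, the ferredoxin reductase of mitochondria, at 134 and 132 and then 196 and 194 TPM. The groups of these 3 genes were clearly separate, while TIGAR, at 6.0 and 5.46 against 7.22 and 6.05 TPM, was separate by a narrow margin.

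Of the 5 genes of DNA repair and nucleotide supply, 4 lay above their controls in HCT116, where 20.1% of all tested genes did. RRM2B, a ribonucleotide reductase subunit, was at 46.8 and 42.0 TPM with shScr and 67.4 and 63.3 TPM with shUHRF1. The damage sensors of nucleotide excision repair followed, XPC from 38.1 and 36.4 to 52.6 and 48.4 TPM and DDB2 from 64.2 and 72.1 to 90.8 and 87.2 TPM, with log2 fold changes of 0.43 and 0.38. XPC shares 24.6% of its exon bases with antisense genes. The translesion polymerase POLH was at 13.2 and 10.2 and then 18.2 and 14.5 TPM, and the helicase ASCC3 overlapped between the groups.

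The feedback regulators MDM2 and PPM1D, a phosphatase that switches the pathway off, were also higher. MDM2 was at 45.8 and 44.8 TPM with shScr and 63.3 and 62.9 TPM with shUHRF1, a log2 fold change of 0.47 ± 0.32 (limma, adjusted p = 0.972, and 0.0283 with the HCT116 libraries alone). PPM1D was at 22.2 and 24.9 and then 34.8 and 29.4 TPM. Of MDM2's exon bases, 11.1% are shared with genes on the opposite strand. KITLG, the secreted ligand of the receptor KIT, was at 454 and 422 and then 536 and 472 TPM, and the membrane protein SUSD6 at 6.57 and 6.71 and then 10.1 and 7.49 TPM.

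In UF1hypo cells, knockdown raised PHLDA3 and PLK2 and lowered KITLG, and no other member was called. Of 32 tested members, 2 were called higher and 1 lower, against 7.39% higher and 1.14% lower over 13620 genes. AEN and PLK3 also reached an adjusted p below 0.05 with a smaller fold change. Both shUHRF1 libraries lay above both shScr libraries for 11 of the 32 tested members and below for 5, where 30.6% and 18.3% of all tested genes did, which are shares near those of the members. The median log2 fold change was 0.08 for the members and 0.04 for all tested genes. Summed, the 34 genes gave 2811 and 2887 TPM in shScr and 2748 and 2651 TPM in shUHRF1.

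PHLDA3 (ENSG00000174307.7; GRCh38 chromosome 1, 201464278 to 201469237), which competes with AKT for membrane lipids, was at 45.9 and 49.7 TPM in UF1hypo shScr and at 133 and 97.2 TPM in shUHRF1. Both knockdown libraries were far above the controls, with a ratio of the means of 2.41 and a log2 fold change of 1.24 ± 0.19 (limma, adjusted p = 0.00396). Of its exon bases 18.4% are shared with another gene on the same strand. PLK2 was at 60.7 and 48.6 TPM with shScr and at 97.2 and 127 TPM with shUHRF1, a log2 fold change of 1.02 ± 0.18 (limma, adjusted p = 0.00857) beside 0.93 in HCT116. KITLG (ENSG00000049130.16; GRCh38 chromosome 12, 88492793 to 88580851) was at 334 and 275 TPM with shScr and only 40.3 and 125 TPM with shUHRF1. Its log2 fold change was -2.08 ± 0.42 (limma, adjusted p = 0.0141), and although the knockdown libraries lay far apart, both were far below the controls. With the 4 UF1hypo libraries alone, PHLDA3 alone remained called (adjusted p = 0.0494), whereas KITLG had an adjusted p of 0.0932 and PLK2 of 0.0892. Of all 13620 tested genes, 516 were called higher and 47 lower in that fit. KITLG was also no longer called without replicate 1 or 2 of UF1hypo shScr (adjusted p = 0.0951 and 0.0534), nor PLK2 without replicate 2 of shScr (adjusted p = 0.0889) or of shUHRF1 (log2 fold change 0.83).

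Other members that passed the adjusted p without the fold threshold were AEN, a nuclease of apoptosis, at 46.8 and 46.8 and then 81.9 and 71.6 TPM (limma, adjusted p = 0.0229), and PLK3 at 61.9 and 73.5 and then 138 and 95.8 TPM (limma, adjusted p = 0.0455). Both stood above their controls in each library. CDKN1A, by contrast, was at 426 and 455 TPM with shScr and at 357 and 283 TPM with shUHRF1, below the controls in both libraries, with a log2 fold change of -0.47 ± 0.15 (limma, adjusted p = 0.0762). BTG2 was likewise lower in both libraries, at 30.9 and 32.5 and then 25.1 and 26.5 TPM (limma, adjusted p = 0.281).

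Several members changed place between the 2 UF1hypo shUHRF1 libraries. MDM2 was at 48.6 and 44.5 TPM in shScr and at 48.6 and 114 TPM in shUHRF1, so that 1 knockdown library matched the controls and the other was above them. SESN1 was at 12.0 and 12.1 and then at 7.03 and 14.9 TPM, RRM2B at 44.6 and 37.4 and then at 21.9 and 51.2 TPM, and CCNG1 at 66.2 and 64.1 and then at 30.9 and 71.4 TPM. In each of these the knockdown libraries fell on either side of the controls. BBC3 did so in the other order, at 59.4 and 61.7 and then 71.2 and 45.1 TPM, as did BAX at 202 and 200 and then 219 and 163 TPM. When each library was corrected for the GC content and length of transcripts, 8 members were higher and 7 lower at an adjusted p below 0.05, against 15.4% and 14.0% of all tested genes. The 7 lower were CDKN1A, GDF15, BTG2, BBC3, PERP, DDB2 and KITLG, and the 8 higher were MDM2, PPM1D, TNFRSF10A, PHLDA3, AEN, PLK2, PLK3 and SUSD6. After that correction CDKN1A had a log2 fold change of -0.67 (limma, adjusted p = 0.000598) and MDM2 of 0.82 (limma, adjusted p = 0.00462).

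**Figure D3:**
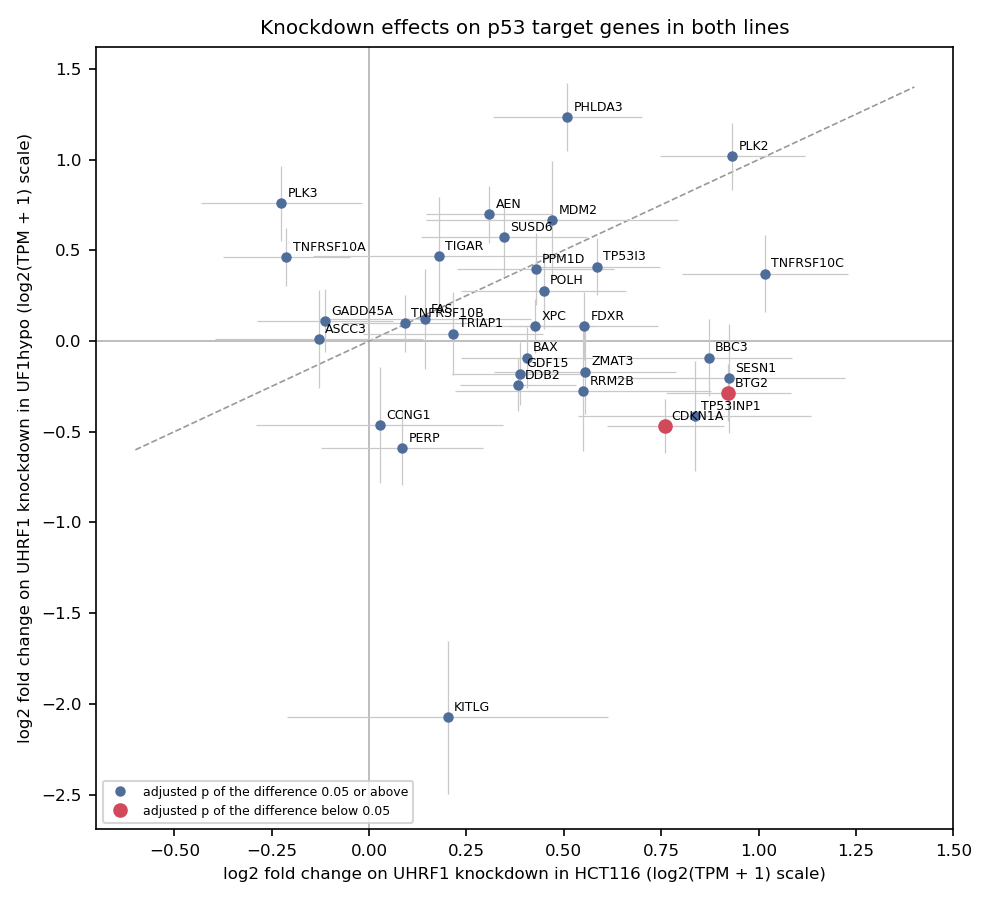
Log2 fold change on UHRF1 knockdown in HCT116 (horizontal) and in UF1hypo (vertical) of the 32 p53 target genes tested in both lines, with bars of 1 SE and a dashed line where the effects are equal. CDKN1A and BTG2, in red, lie to the right of 0 and below it with an adjusted p of the difference below 0.05, and KITLG lies lowest at -2.08.

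The knockdown effects were compared directly between the lines as a difference of log2 fold changes, UF1hypo minus HCT116. CDKN1A and BTG2 passed this test, both with the more negative effect in UF1hypo. They were the 2 members called of 33, where 0.559% of 13781 genes were called in that direction, and no member was called in the other, where 4.54% of genes were. For CDKN1A the difference was -1.23 ± 0.21 (SE; limma, adjusted p = 0.0148), and for BTG2 it was -1.21 ± 0.22 (limma, adjusted p = 0.0194). In both genes the knockdown libraries lay above the controls in HCT116 and below them in UF1hypo, each time in both libraries. Leaving out any 1 of the HCT116 libraries or of the UF1hypo shScr libraries raised the adjusted p of both above 0.05, to at most 0.0988 for CDKN1A and 0.132 for BTG2, while the differences themselves stayed between -1.40 and -1.06 for CDKN1A over all libraries left out. The median difference was -0.34 for the members and 0.08 for all tested genes. With 1 library left out at a time, that of the members ran from -0.402 to -0.201.

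Of the 27 members with higher HCT116 knockdown libraries, 10 were higher, 5 lower and 12 overlapped in UF1hypo. Of all genes tested there, 30.6% were higher and 18.3% lower. The 27 include SPATA18 and EDA2R, which were not tested in UF1hypo, and EDA2R is among the 10. The 5 were CDKN1A, BTG2, DDB2, PERP and KITLG. KITLG had the largest difference, -2.28 ± 0.59 (limma, adjusted p = 0.0706), and it was called when the fit weighted the libraries by their spread (adjusted p = 0.0135). BBC3 differed by -0.96, TP53INP1 by -1.25 and SESN1 by -1.13 without passing the adjusted p. These 3 and KITLG passed after the GC and length correction, which brought the members called to 6. PLK2 differed by 0.08 ± 0.26 (limma, adjusted p = 0.911).

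The libraries of members with and without an element in the window are given side by side, without a test of the difference. EDA2R and SPATA18 have a match and are left out here, EDA2R as untested in both lines and SPATA18 as untested in UF1hypo and above 1 TPM in HCT116 only after knockdown. In HCT116, both knockdown libraries lay above both controls for 10 and below for 1 of the other 14 members with a match, and above for 15 and below for 2 of the 18 without, where 20.1% of all tested genes lay above and 29.3% below. In UF1hypo they lay above for 2 and below for 3 of the 14, and above for 9 and below for 2 of the 18, where the shares of all genes were 30.6% and 18.3%. Of CDKN1A and PLK2, both with the element upstream, CDKN1A lay below its controls in UF1hypo and PLK2 above.

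**Figure D4:**
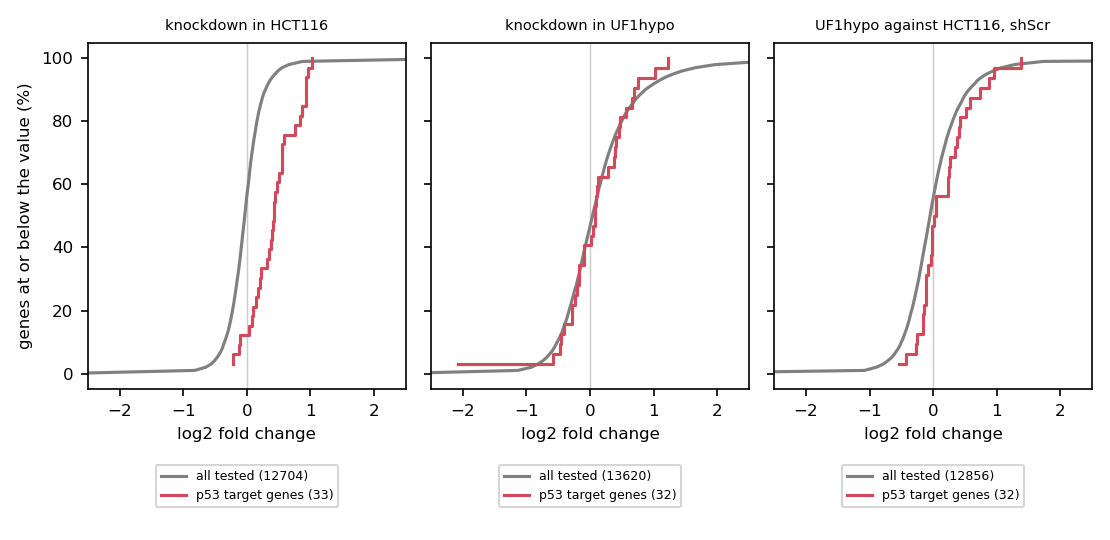
Percentage of genes (vertical) at or below a given log2 fold change (horizontal) for the tested p53 target genes (red steps) and all tested protein-coding genes (gray line, whose ends run past the axis) in 3 comparisons. The red steps lie to the right of the gray line in HCT116, where the medians are 0.43 and -0.03, and run along it in UF1hypo, where they are 0.08 and 0.04.

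Before knockdown, 1 p53 target gene was called between the clone and its parent, and more members lay above the parent than below it. This comparison, UF1hypo shScr against HCT116 shScr, uses the control libraries of both knockdown comparisons and is not independent of them. TP53I3 (ENSG00000115129.14; GRCh38 chromosome 2, 24077433 to 24085861) was the 1 called member of 32, where 2.59% of 12856 genes were called higher and 0.949% lower. It was at 12.8 and 12.4 TPM in HCT116 and at 35.7 and 33.6 TPM in UF1hypo, higher in both libraries by a log2 fold change of 1.39 ± 0.16 (limma, adjusted p = 0.00188). TNFRSF10C was at 3.55 and 4.56 against 8.29 and 9.24 TPM, a log2 fold change of 0.96 ± 0.21 (limma, adjusted p = 0.0407), just under the fold threshold. CDKN1A was at 285 and 307 against 426 and 455 TPM (log2 fold change 0.57; limma, adjusted p = 0.0718), FDXR at 134 and 132 against 200 and 245 TPM (0.73; adjusted p = 0.0681) and TP53INP1 at 6.41 and 7.15 against 15.9 and 11.2 TPM (0.89; adjusted p = 0.154). In these 3 the clone lay above its parent in both libraries without passing the test of the shared fit. Over the tested members 14 lay above and 6 below, where 29.1% and 37.2% of all genes did, and the median was 0.03 against -0.05. With the 4 shScr libraries alone, 9 members were higher and 2 lower at an adjusted p below 0.05. Of all 12856 tested genes 1513 were higher and 1564 lower by that rule. SPATA18, at 0.31 and 0.43 TPM in HCT116, was between 0 and 0.235 TPM in the UF1hypo libraries and was not tested there.

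Among the regulators of p53, its inhibitor MDM4 overlapped between knockdown and control in UF1hypo and was not called. Of 20 tested regulators, 0 were called in HCT116 by limma, and 0 had an unadjusted p below 0.05. Of the 20 tested in UF1hypo, 1 was called higher and 1 lower, where 7.39% and 1.14% of all tested genes were. With the 4 UF1hypo libraries alone, 0 of the 20 had an adjusted p below 0.05, where 563 of 13620 tested genes did. After the GC and length correction 0 were called higher and 1 lower, where 883 and 229 of all tested genes were. In UF1hypo HIPK2, a kinase of p53, fell from 25.0 and 25.0 to 12.6 and 11.0 TPM (log2 fold change -1.03; limma, adjusted p = 0.00624), and CDKN2A, whose locus encodes the MDM2 inhibitor ARF as well as p16, rose from 115 and 136 to 317 and 205 TPM (1.02; adjusted p = 0.016).

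A wider list of 43 further p53 targets held 2 called genes of 42 in HCT116, GRHL3 (1.76 and 2.59 to 13.3 and 13.2 TPM; log2 fold change 2.18, adjusted p = 0.0255 in limma) and INPP5D (1.68 and 2.11 to 10.9 and 8.83 TPM; 1.91, adjusted p = 0.038). The first is an epithelial transcription factor and the second a phosphoinositide phosphatase. Over all tested genes 0.0472% were called higher there. The median of that list was 0.16, with 22 of 42 above and 8 below their controls, against the 20.1% and 29.3% of all tested genes. In UF1hypo 7 of 41 were called, all higher, where 7.39% of all tested genes were called higher and 1.14% lower. With the 4 UF1hypo libraries alone 4 of 41 were called, all higher, where 516 of 13620 tested genes were called higher and 47 lower. The largest of the 7 were TRIM22, GRHL3, PML and RRAD with 2.52, 1.72, 1.57 and 1.38. Of these, TRIM22 and PML are also known as interferon-induced genes. Of 23 cell cycle genes that p21 represses through the DREAM complex, 0 were called in HCT116 and 0 in UF1hypo by limma. At an unadjusted p below 0.05 there were 0 and 6, and of the 6, 2 were higher and 4 lower. Of all 13620 genes tested in UF1hypo, 2584 were higher and 1151 lower by that rule. The medians were 0.05 and -0.32, against -0.03 and 0.04 for all tested genes. In UF1hypo shScr 20 of the 23 lay below HCT116 shScr, where 37.2% of all tested genes did. Limma called 0 of the 23, with 7 at an unadjusted p below 0.05, all lower, where 923 of 12856 tested genes were lower by that rule. With the 4 shScr libraries alone, 12 of the 23 were lower at an adjusted p below 0.05, as were 1564 of 12856 tested genes.

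Genes of other stress programs changed in the same libraries. Of 10 tested genes of the ATF4 and integrated stress response, which answers amino acid shortage and unfolded protein, all 10 lay below their controls on knockdown in HCT116, where 29.3% of all tested genes did, and CHAC1 was called, from 77.6 and 76.0 to 33.8 and 29.1 TPM (log2 fold change -1.26; limma, adjusted p = 0.0437). In UF1hypo CHAC1 rose from 16.9 and 18.1 to 75.2 and 68.2 TPM (1.98; adjusted p = 0.000136), and ATF3 and DDIT3 were called higher as well. These were 3 called of 10, where 7.39% of all tested genes were called higher. With the 4 UF1hypo libraries alone 1 of the 10 was called, as higher, where 516 of 13620 tested genes were called higher. In UF1hypo shScr all 10 tested ATF4 genes lay below HCT116 shScr, where 37.2% of all tested genes did, with a median log2 fold change of -1.21. Limma called 5 of them lower, where 0.949% of all tested genes were. The largest were TRIB3, CHAC1, ASNS and PSAT1, from -2.09 for TRIB3 to -1.69 for PSAT1. The list shares SESN2 with the wider p53 list, and SESN2 differed between the lines by 1.21 (limma, adjusted p = 0.0458). Of 10 interferon-stimulated genes, 9 were called higher on knockdown in UF1hypo, where 7.39% of all tested genes were. All 10 were called higher in UF1hypo shScr against HCT116 shScr, where 2.59% of all tested genes were. On knockdown in HCT116, 0 of the 8 tested were called and 2 had an unadjusted p below 0.05. Both were higher, where 2.57% of all tested genes were by that rule. The part of these programs in the values of the p53 target genes was not tested.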

How the data were processed

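The authors aligned Fastp-trimmed reads to GRCh38 (HISAT2 2.0.4) and computed gene abundances with StringTie 2.1.4. The deposited coverage is mean per-base signal, unscaled. FPKM and TPM were normalized by the authors for length and for library size. Depth was recovered as coverage over FPKM, and TPM alone was tested. Identifiers were matched to GENCODE 44 without their version (60463 of 60649), and records of 1 identifier were summed.

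Log2(TPM + 1) values of protein-coding genes entered 1 limma 3.58.1 fit (R 4.3.3, trended variances, 4 group means, 4 residual degrees of freedom). It was tried on simulated libraries whose groups share 1 spread per gene, which leaves out the wider spread of UF1hypo shUHRF1. The authors' DESeq2 test was not run because no counts were given, and limma was used with its thresholds. Replicate numbers were not used as pairs in the main fit (correlations of deviations from -0.40, between the UF1hypo groups, to 0.05). Members, lists, roles and tests were chosen with earlier results of these data known. Named genes were all members, UHRF1, MDM4 and the genes called in each other list, at most 4 per comparison. Other steps used Python 3.11.15, numpy 2.4.6, pandas 2.3.3 and matplotlib 3.10.9. A few listed genes are not reported here, and DNA methylation was not analysed here.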

Additional observations from a re-analysis of the deposited data

Results flagged for a closer look

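The difference of the knockdown effects between the lines, UF1hypo minus HCT116 on the log2 scale, passed its limma test for CDKN1A (-1.23) and for BTG2 (-1.21). Another 5 members had both knockdown libraries on one side of the controls in HCT116 and on the other side in UF1hypo, and their differences did not pass the test of the difference. These were TNFRSF10A (0.675), DDB2 (-0.624), PLK3 (0.985), PERP (-0.674) and KITLG (-2.28), with adjusted p from 0.0706 for KITLG to 0.268 for PERP in limma. No search for single outlying libraries can be made with 2 per group.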

How the results depend on the processing

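With the 4 libraries of a comparison alone, the members called were 1 in HCT116 and 1 in UF1hypo in place of 0 and 3, and all genes called were 89 and 563 in place of 9 and 1162. That setting was not run for the difference, which uses all libraries. Library weights gave 1 member in HCT116 and, over all genes, 101 in HCT116, 539 in UF1hypo and 419 for the difference in place of 702. The GC and length correction gave 68 genes in HCT116, 6 members for the difference (773 genes higher and 275 lower, against 625 and 77), and 2 members and a median of 0.151 in place of 0.030 in UF1hypo shScr against HCT116 shScr. Median-ratio scaling gave 3 genes in HCT116 and, in that last comparison, 2 members and a median of 0.082. A pseudocount of 0.1 gave 2 members there, 30 genes in HCT116 and 448 for the difference. In HCT116, all genes called were 2 without the TPM filter, 3 with all annotated genes and 5 with variances without a trend.

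The replicate number as a block left 0, 3, 2 and 1 members called in the 4 comparisons and took all genes called in HCT116 from 9 to 1. It changed no call of a member. Crossing the numbers of UF1hypo shUHRF1, chosen after seeing the data, gave 3 members in UF1hypo and 3 for the difference, with 1207 and 693 genes. In UF1hypo, leaving out 1 library gave 1 to 4 members and 655 to 2255 genes called. PHLDA3 was called each time, while KITLG was not called without either shScr library and PLK2 was not called without replicate 2 of shScr or of shUHRF1. The lowest counts came without replicate 2 (members) and 1 (genes) of shScr, and the highest number of genes without replicate 2 of shUHRF1. For the difference the ranges were 0 to 8 members and 171 to 2142 genes, with 0 members without any 1 of the HCT116 or UF1hypo shScr libraries and 8 without replicate 2 of UF1hypo shUHRF1. In HCT116 they were 0 to 0 members and 0 to 0 genes, and in UF1hypo shScr against HCT116 shScr 1 to 1 members and 149 to 190 genes. The medians of the members stayed within 0.354 to 0.496 in HCT116, 0.034 to 0.266 in UF1hypo, -0.402 to -0.201 for the difference and 0.023 to 0.112 for the clone against its parent. No member with an unadjusted p below 0.05 in a comparison reversed its direction there under any setting. The causes of these shifts were not tested, and the reads behind a TPM value are unknown.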
